A study of Caenorhabditis elegans with 6 samples.

Results

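The *ceh* genes, named for *C. elegans* homeobox, were taken as every protein-coding gene of the deposited count table whose name is *ceh-* followed by a number, with *ceh-60* left out. This gave 63 genes of 20191 protein-coding genes. They were measured by mRNA-seq of whole dauer larvae in 6 libraries, 3 from *daf-16(mgDf50); daf-7(e1372)* animals, called *daf-16(0)* here, and 3 from *daf-7(e1372)* animals, called control. The comparison addressed what the loss of *daf-16* changes in dauer larvae. Both genotypes carried *daf-7(e1372)*, an allele of a TGF-beta ligand gene that drives larvae into dauer, so the comparison is between *daf-7* mutants with and without the FOXO transcription factor DAF-16, which acts downstream of insulin signaling. Embryos were incubated for 52 hours at 24 °C, a regime in which part of the *daf-16(0)* population bypasses dauer. Dauer larvae of both strains were picked by hand, so the *daf-16(0)* libraries represent the animals that were recognized as dauer. The labels number 3 replicates for each genotype while the protocol mentions fewer. The authors' own comparison used 4 libraries, namely replicates 2 and 3 of *daf-16(0)* with replicates 1 and 2 of the control. The study's methods describe a search for outlier samples by read quality and principal components but name none. Whether that search set the choice of the 4 libraries is not stated. Results are therefore given for these 4 libraries first and for all 6 libraries beside them.

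Homeobox genes encode transcription factors that bind DNA through the homeodomain. Across animals they assign position along the body axis, tissue identity and neuron identity, and in *C. elegans* the neuron classes can be told apart by the combination of homeobox genes that each expresses. The dauer larva is a non-feeding, stress-resistant alternative to the third larval stage, in which progenitor cells pause and the nervous system is remodeled.

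The libraries held between 8103809 and 17808557 counts in protein-coding genes. The targeted gene *daf-16* was at 40.2, 63.4 and 42.9 normalized CPM, the counts scaled to a common library size, in *daf-16(0)* replicates 1 to 3 and at 399, 354 and 197 in control replicates 1 to 3, so each library matched its label. Ribosomal RNA genes took 8.64% of all counts in control replicate 1 and between 0.0599% and 1.44% in the others. Control replicate 3 stood apart from the other libraries on the second principal component, at 96.4 against -38.2 to 9.75, and its 6 yolk genes summed to 18327 CPM, against 322 and 124 in control replicates 1 and 2 and 13815 to 25584 in *daf-16(0)*. Summed germline and oocyte markers were at 884 CPM in control replicate 3, against 204 and 79.2 in the other controls and 322 to 1427 in *daf-16(0)*. The study took its list of 24 dauer collagens from modENCODE expression data. They summed to 91.3 CPM in *daf-16(0)* replicate 1 and to 4029 and 5421 in *daf-16(0)* replicates 2 and 3. In control they summed to 36283 to 132957 CPM. *daf-16(0)* replicate 1 was thus far below the other libraries on these collagens. All 23 that were tested fell in the 4 libraries, which do not include that replicate, and 7 in the 6. Over all genes tested, 9.58% and 7.39% were called lower. The paper itself reports 23 of the 24 collagens as lower in *daf-16(0)* dauers, so their level does not mark stage alone. Samples with the same replicate number did not deviate together, and whether replicates came from separate cultures is not given for each library, so the p-values measure the spread between these libraries.

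Most of the *ceh* genes were expressed at low levels. The 63 genes together took 382, 358 and 406 CPM in *daf-16(0)* replicates 1 to 3 and 661, 770 and 450 CPM in control replicates 1 to 3, so the groups did not overlap and control replicate 3 lay closest to *daf-16(0)*. A count was found for 41 to 44 members in the *daf-16(0)* libraries and for 37 to 47 in the control libraries, and 26 members had a count in all 6. The members with the most reads, *ceh-18*, *ceh-20*, *ceh-38*, *ceh-44* and *ceh-100*, held between 53.6% and 63.2% of the summed level in each library. A level equal to 3 counts corresponded to between 0.154 and 0.425 CPM, depending on the library, and values at such levels rest on few reads.

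Compared per kilobase of exon in control dauers, *ceh-18* had the highest mean level, at 54.7 ± 25.5 CPM per kb (SD, n = 3). It was followed by *ceh-20* at 38.5 ± 19.3, *ceh-38* at 27.1 ± 7.14 and *ceh-13* at 19.7 ± 9.18 CPM per kb. The range of each of these genes overlapped that of the next. Within libraries, *ceh-18* was above *ceh-20* in each control library. The order of *ceh-20* and *ceh-38*, and that of *ceh-38* and *ceh-13*, differed between the control libraries. The ranks of *ceh-14*, *ceh-58*, *ceh-44*, *ceh-6* and *ceh-16* were closer still, with means from 12.4 to 14.4 CPM per kb. Of the 20 genes with the highest mean, *ceh-16*, *ceh-34*, *ceh-91* and *ceh-100* had their highest control level in replicate 3, and the others in replicate 1 or 2.

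**Figure D1:**
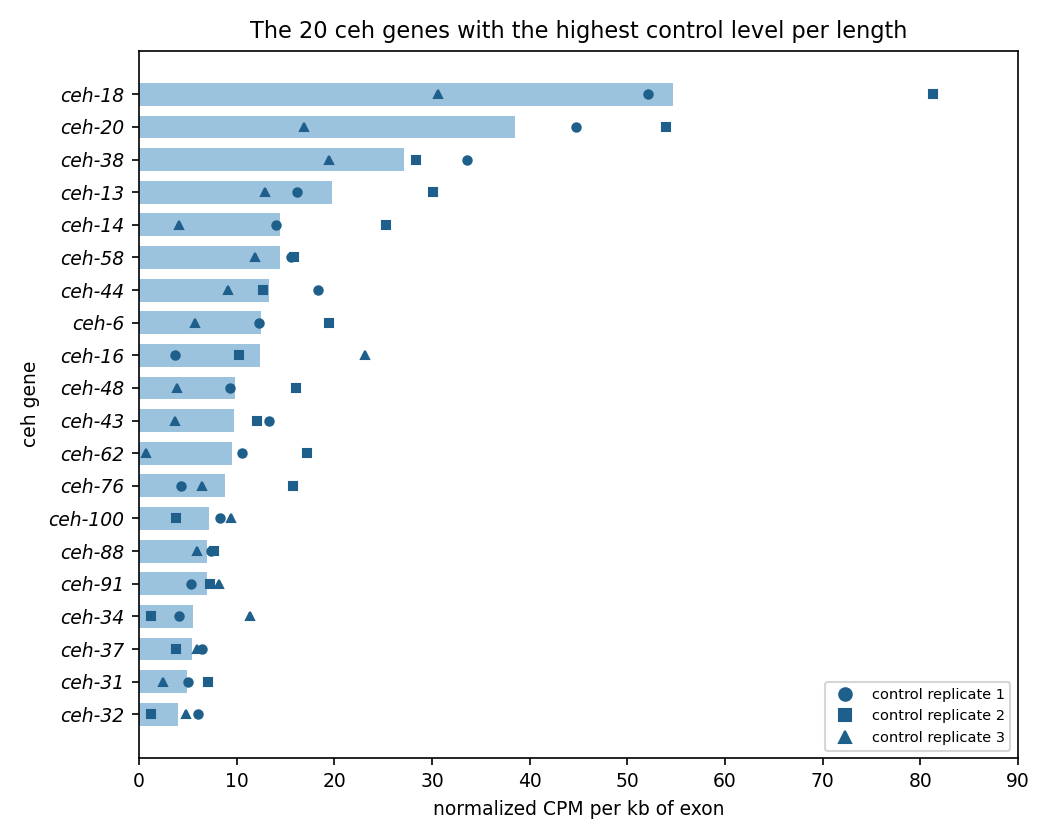
Control level of the 20 *ceh* genes with the highest mean, in normalized CPM per kilobase of exon on a linear axis; bars are means of the 3 control libraries and symbols are the libraries. *ceh-18* led at 54.7 CPM per kb, and control replicate 3 was the lowest of the 3 libraries for each of the 8 genes at the top of the order.

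A member was called when it differed at least 2-fold with an adjusted p of at most 0.05 in edgeR's quasi-likelihood test, adjusted by Benjamini-Hochberg over all protein-coding genes tested. In the 4 libraries, 35 members had enough reads to be tested, of which 4 fell in *daf-16(0)* dauers (*ceh-14*, *ceh-18*, *ceh-48* and *ceh-76*) and 0 rose. Over all 13536 genes tested, 9.58% were called lower and 5.34% higher, so the share of members called lower, 11.4%, was near that of all genes. In the 6 libraries 38 members were tested, and 2 fell (*ceh-18* and *ceh-76*) while 0 rose, against 7.39% of all genes called lower and 5.07% called higher. Without adjustment, 8 members were lower and 1 higher at p under 0.05 in the 4 libraries, beside 19.1% and 16.9% of all genes tested. In the 6, 7 were lower and 1 higher, beside 16.2% and 13.9% of all genes. DESeq2 called 1 member higher in the 4 libraries and 0 in the 6, and limma called 2 and 1. In RNA from whole animals, fewer cells of a type and less RNA per cell cannot be told apart.

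The calls depended on which libraries entered. Of the 4 libraries, leaving out *daf-16(0)* replicate 2 left 0 members lower, leaving out control replicate 2 left 1 (*ceh-18*), leaving out *daf-16(0)* replicate 3 left 3 (*ceh-6*, *ceh-14* and *ceh-18*) and leaving out control replicate 1 gave 5, with *ceh-6* added. Of the 6 libraries, leaving out control replicate 3 gave 4 members lower, the ones called in the 4 libraries, while 0 were lower without *daf-16(0)* replicate 1, *daf-16(0)* replicate 2 or control replicate 2. *ceh-18* alone was lower without *daf-16(0)* replicate 3, and *ceh-76* alone without control replicate 1.

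As a group, the tested members had a median log2 difference of -0.84 in the 4 libraries (-0.56 in the 6), against 0.11 and 0.09 over all genes tested. The median shrank to -0.50 with a mean of at least 10 counts and to -0.52 without *daf-16(0)* replicate 3 in the 4 libraries (-0.54 without control replicate 2), and to -0.29 with DESeq2 and -0.27 without a filter in the 6. The sign was negative for 24 of 35 members and for 24 of 38, beside 6337 of 13536 and 6424 of 13633 of all genes tested. All 3 *daf-16(0)* libraries were below all 3 control libraries for 11 of the 38 members, a pattern that 19.6% of all tested genes showed, and above them for 4, a pattern that 21.3% of all tested genes showed. The 11 members were *ceh-6*, *ceh-14*, *ceh-16*, *ceh-18*, *ceh-22*, *ceh-33*, *ceh-38*, *ceh-48*, *ceh-58*, *ceh-76* and *ceh-88*, and the 4 were *ceh-79*, *ceh-89*, *ceh-92* and *ceh-99*. Of these, *ceh-33* and *ceh-76* held few or no reads in *daf-16(0)*, and *ceh-89* and *ceh-99* few or none in control. They entered the test through their reads in the other genotype, so the filter itself favoured a lack of overlap. The shares of all tested genes were taken after the same filter.

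**Figure D2:**
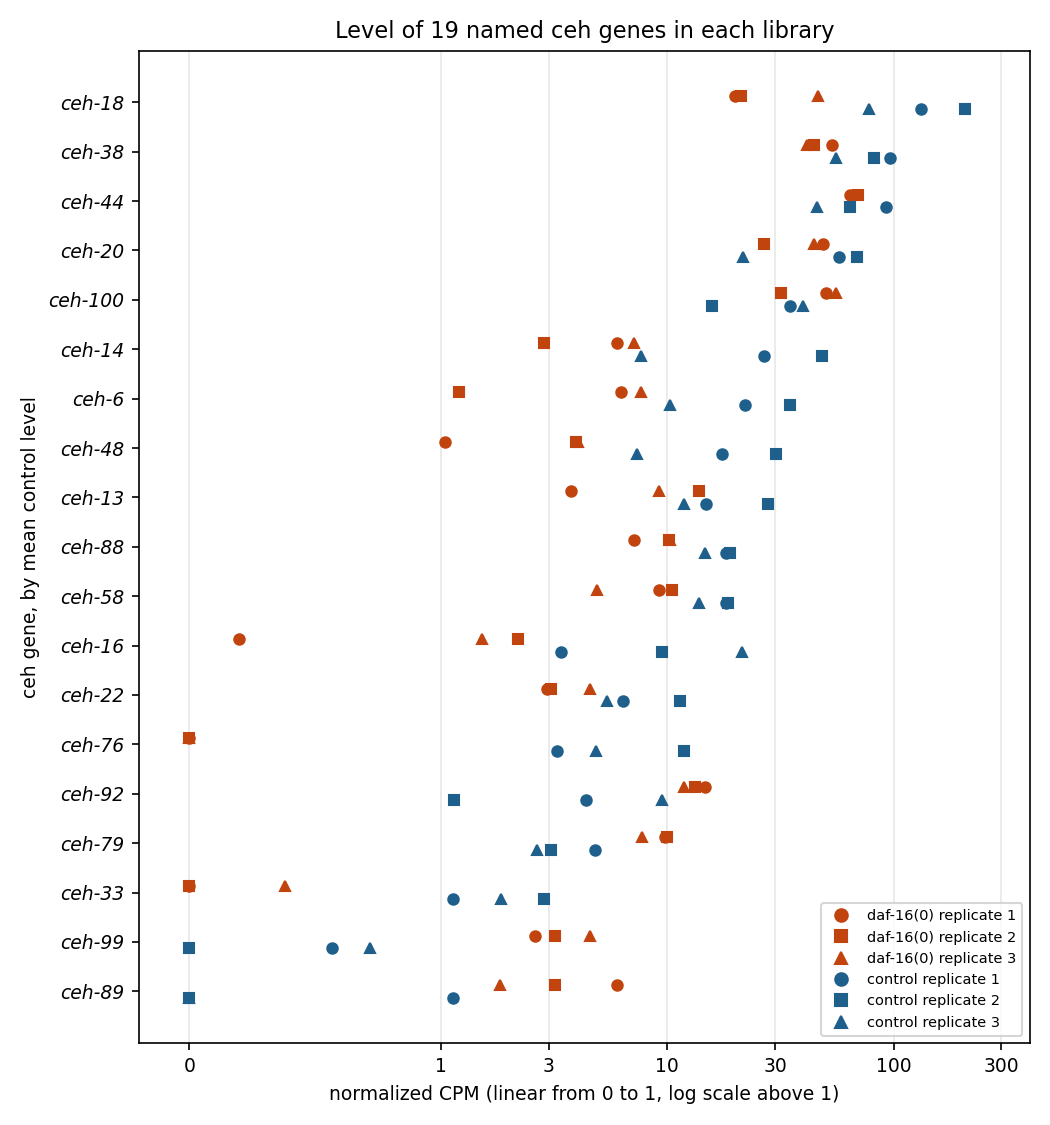
Level of the 19 *ceh* genes named by rule in each library, in normalized CPM on an axis that is linear from 0 to 1 and logarithmic above; symbols are single libraries, red for *daf-16(0)* and blue for control. *ceh-76* was at 0 CPM in each *daf-16(0)* library, and *ceh-18* ran from 19.9 to 46.3 CPM in *daf-16(0)* and from 77.8 to 207 CPM in control.

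Of the POU class, which joins a homeodomain to a POU-specific domain, *ceh-18* fell and *ceh-6* did not pass the test. *ceh-18* acts in the gonadal sheath cells, where it is needed for normal oocyte meiotic arrest (WBGene00000441, chromosome X, 3843367 to 3857797, reverse strand, WBcel235). It was at 19.9, 21.2 and 46.3 CPM in *daf-16(0)* replicates 1 to 3 and at 133, 207 and 77.8 CPM in control replicates 1 to 3. The lowest control library was thus above the highest *daf-16(0)* library. Its log2 fold change was -2.31 ± 0.48 (SE, n = 2 per genotype; adjusted p = 0.028, edgeR quasi-likelihood test) in the 4 libraries and -2.25 ± 0.49 (n = 3 per genotype; adjusted p = 0.027) in the 6. The call was lost in the 4 libraries without *daf-16(0)* replicate 2 (adjusted p = 0.11), and in the 6 without *daf-16(0)* replicate 1 or 2 or control replicate 1 or 2 (0.061 to 0.12). Of the 6 germline and oocyte markers, whose sums overlapped between the genotypes, each had a positive sign in both fits and 0 were called. The 5 sperm markers summed to 17.6 to 90.1 CPM in *daf-16(0)* and 1.14 to 1.79 CPM in control. Of them, 2 rose in the 4 libraries and 3 in the 6. All 6 yolk genes rose in the 4 libraries and 0 in the 6. Over all genes tested, 5.34% and 5.07% were called higher. The part of germline content in the *ceh-18* result was not tested.

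*ceh-6*, a POU gene required in the excretory cell, which regulates osmotic balance, was at 6.25, 1.21 and 7.70 CPM in *daf-16(0)* and at 21.97, 34.9 and 10.3 CPM in control. The groups did not overlap, but control replicate 3 was close to the highest *daf-16(0)* library. With 4 libraries, -2.64 ± 0.84 on the log2 scale did not pass edgeR's quasi-likelihood test (adjusted p = 0.080), nor did -2.14 ± 0.76 in the 6 (adjusted p = 0.10). In the 4 libraries it passed with DESeq2, with limma, without the filter on low counts, and without *daf-16(0)* replicate 3 or control replicate 1, and in the 6 it passed with DESeq2 (adjusted p = 0.031).

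*ceh-14*, the LIM-class member, specifies neurons that include the AFD thermosensory neuron (WBGene00000438, chromosome X, 7528616 to 7532732, reverse strand). Its level was 5.99, 2.85 and 7.16 CPM in *daf-16(0)* replicates 1 to 3 and 26.6, 48.1 and 7.68 CPM in control replicates 1 to 3. Control replicates 1 and 2 were well above the *daf-16(0)* libraries, whereas control replicate 3 was only just above *daf-16(0)* replicate 3. It fell in the 4 libraries, with a log2 fold change of -2.87 ± 0.59 (adjusted p = 0.028, edgeR quasi-likelihood test), and in the 6 its log2 fold change of -2.36 ± 0.71 did not pass (adjusted p = 0.067) but did with DESeq2 (0.0098) and without control replicate 3 (0.015). The call in the 4 libraries was lost without *daf-16(0)* replicate 2 (adjusted p = 0.082) or control replicate 2 (adjusted p = 0.054).

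The CUT and ONECUT class combines CUT domains with a homeodomain, and its neuronal members act broadly on genes that all neurons express. Of its 7 members 6 were tested, and *ceh-48* was the only member called. *ceh-48*, an ONECUT gene with pan-neuronal expression (WBGene00015934, chromosome IV, 6812108 to 6815607, forward strand), was at 1.04, 3.95 and 4.04 CPM in *daf-16(0)* and at 17.4, 30.2 and 7.33 CPM in control. No *daf-16(0)* library reached the lowest control library, replicate 3. The gene fell in the 4 libraries, with a log2 fold change of -2.56 ± 0.52 (adjusted p = 0.027, edgeR quasi-likelihood test), while -2.60 ± 0.76 in the 6 did not pass (adjusted p = 0.061) but did with DESeq2 (0.0062), with limma (0.039) and without control replicate 3 (0.026). In the 4 libraries the call held only with both *daf-16(0)* libraries and control replicate 2, with an adjusted p of 0.081 to 0.086 when any of those 3 was left out.

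*ceh-38*, another ONECUT gene, was at 53.2, 44.5 and 41.4 CPM in *daf-16(0)* and at 96.4, 81.6 and 55.8 CPM in control. The groups did not overlap, with control replicate 3 close to *daf-16(0)* replicate 1. Its log2 fold change of -1.03 ± 0.28 in the 4 libraries had an adjusted p of 0.059 in edgeR's quasi-likelihood test and passed with DESeq2, with limma and without the filter on low counts. In the 6 libraries it was -0.75 ± 0.30 (adjusted p = 0.14). *ceh-44*, the CUX-type member, was at 64.4, 69.7 and 68.6 CPM in *daf-16(0)* and at 92.7, 63.96 and 46.1 CPM in control. Its *daf-16(0)* levels lay inside the control range, and the 3 *daf-16(0)* libraries spread less than the 3 controls, with an SD of 2.79 against 23.5 CPM. On the log2 scale it differed by -0.16 ± 0.30 in the 4 libraries and by 0.00 ± 0.32 in the 6, and its sign changed with the libraries and the filter. The count is for the whole gene, so its isoforms were not separated.

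The other tested ONECUT genes, *ceh-21*, *ceh-39* and *ceh-41*, lie next to each other on chromosome X, and *ceh-39* is known as an X-linked signal element in sex determination. They were chosen here for their position. *ceh-41* and *ceh-21* lie 119 bp apart, and 1137 bp with 1 other protein-coding gene separate *ceh-21* from *ceh-39*. The log2 fold changes in the 4 libraries were -1.37 for *ceh-21*, 1.03 for *ceh-41* and 0.52 for *ceh-39*, and none passed the test, with adjusted p-values of 0.28, 0.42 and 0.73 in edgeR's quasi-likelihood test. Levels overlapped between the genotypes for each of them, for example 10.9, 1.75 and 6.25 CPM against 6.66, 14.3 and 5.84 CPM for *ceh-21*. The remaining member of the class, *ceh-49*, was not tested: 70 of its 71 counts came from *daf-16(0)* replicate 1.

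*ceh-76* (WBGene00022395, chromosome V, 7993789 to 7994666, reverse strand) had the largest fitted difference of the members. No read was counted in any *daf-16(0)* library, against 3.26, 11.8 and 4.87 CPM in control replicates 1 to 3, with 23 counts behind replicate 1, 95 behind replicate 3 and more behind replicate 2. All 3 control libraries were therefore above all 3 *daf-16(0)* libraries, by a margin well over the level of 3 counts. Set against that level per library, *ceh-76* was at least 27.1-fold lower in *daf-16(0)* in the 4 libraries and at least 26.5-fold lower in the 6. These bounds leaned on control replicate 2, without which they were 11.7-fold and 16.2-fold, and the bound in the 4 libraries was 42.5-fold without control replicate 1. It was called in both, with an adjusted p of 0.031 and 0.022 in edgeR's quasi-likelihood test. The call was lost without *daf-16(0)* replicate 2 (0.059), *daf-16(0)* replicate 3 (0.068) or control replicate 2 (0.20) in the 4 libraries. In the 6 it was lost without any *daf-16(0)* library (0.051 to 0.075) or control replicate 2 (0.096). The gene is annotated at a length of 753 bp of exon and overlaps no other protein-coding gene.

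The 4 members whose *daf-16(0)* libraries were all above the controls carry high *ceh* numbers and were not placed in a named class, and none passed the main test. *ceh-92* was at 14.6, 13.3 and 11.8 CPM in *daf-16(0)* and at 4.39, 1.14 and 9.53 CPM in control. The *daf-16(0)* libraries were close together, and control replicate 3 came nearest to them. Its log2 fold change was 2.22 ± 0.80 (adjusted p = 0.10, edgeR quasi-likelihood test) in the 4 libraries and 1.39 ± 0.75 (adjusted p = 0.25) in the 6. In the 4 libraries it passed with DESeq2 (0.048), with limma (0.049) and without control replicate 1 (0.020).

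*ceh-79* was at 9.76, 9.98 and 7.77 CPM in *daf-16(0)* and at 4.82, 3.07 and 2.66 CPM in control, with log2 fold changes of 1.19 ± 0.67 and 1.39 ± 0.60 (adjusted p = 0.24 and 0.17, edgeR quasi-likelihood test). *ceh-99* was at 2.60, 3.18 and 4.57 CPM in *daf-16(0)* and at 0.567, 0 and 0.717 CPM in control. The control libraries thus held few or no reads of it, and its log2 fold change of 3.80 ± 1.62 in the 4 libraries passed only with limma (adjusted p = 0.047) among the tools run. *ceh-89* was at 5.99, 3.18 and 1.83 CPM in *daf-16(0)* and at 1.13, 0 and 0 CPM in control, and was not called by any setting. *ceh-100* was among the most highly expressed members, with 50.1, 31.9 and 55.5 CPM in *daf-16(0)* and 35.003, 15.8 and 39.6 CPM in control. Its groups overlapped, and its log2 fold changes of 0.81 ± 0.49 and 0.60 ± 0.41 did not pass the test.

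**Figure D3:**
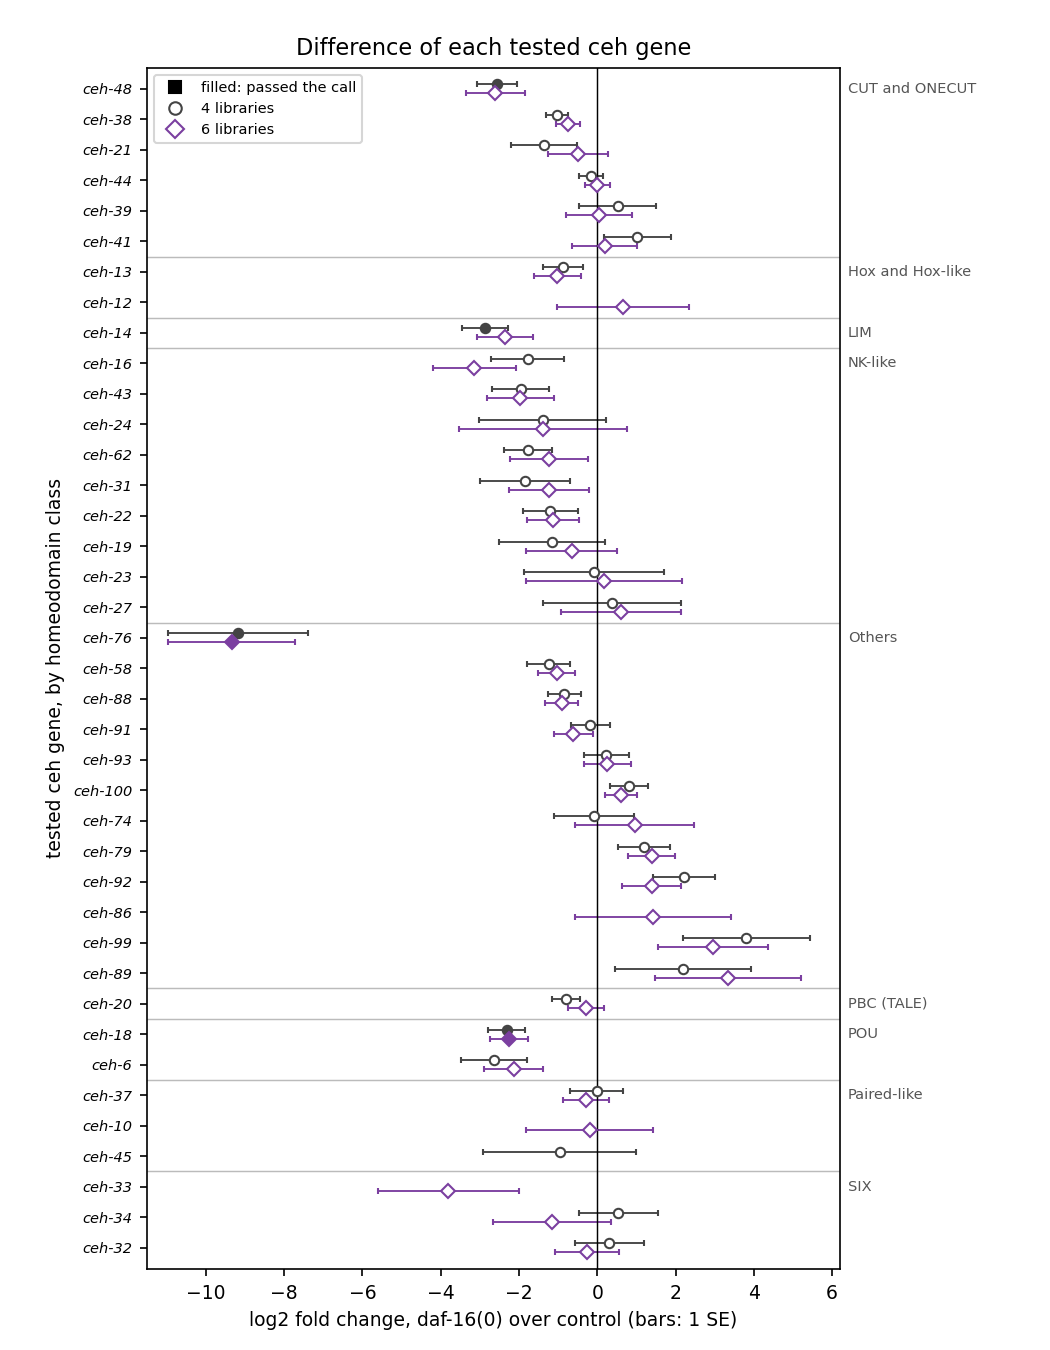
Log2 fold change of *daf-16(0)* over control for the 39 *ceh* genes tested in at least 1 fit, ordered by homeodomain class; circles are the 4 libraries, diamonds the 6 libraries, bars 1 SE and filled symbols passed the call. The filled symbols were *ceh-14*, *ceh-18*, *ceh-48* and *ceh-76* in the 4 libraries and *ceh-18* and *ceh-76* in the 6; the value of *ceh-76* depends on how 0 counts are handled.

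Of the 18 NK-like genes, a broad class that includes the *engrailed*, *Distal-less* and *NK-2* relatives, 9 were tested and 0 were called in either fit. Their signs were negative for 8 of 9 in the 4 libraries and for 7 of 9 in the 6. *ceh-16*, the *engrailed* gene that keeps seam cells, the lateral skin progenitors, from fusing, was at 0.195, 2.19 and 1.52 CPM in *daf-16(0)* and at 3.40, 9.45 and 21.3 CPM in control. The groups did not overlap, and control replicate 3 was the highest library by far. Its log2 fold change was -1.78 ± 0.92 (adjusted p = 0.21, edgeR quasi-likelihood test) in the 4 libraries and -3.14 ± 1.06 (adjusted p = 0.090) in the 6, and it was called only by DESeq2 in the 6 (adjusted p = 0.012). *ceh-16* overlaps *C13G5.2* and *polk-1* on the opposite strand, and the library kit that the labels name, TruSeq RNA v2, does not mark strand, so reads from the shared stretch cannot be told apart. *C13G5.2* had 289, 80 and 64 counts in *daf-16(0)* and 61, 13 and 451 in control, and was highest in control replicate 3. *polk-1* had 220, 112 and 169 counts in *daf-16(0)* and 27, 62 and 212 in control, and was highest in *daf-16(0)* replicate 1.

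Seam cell markers had a summed level of 19.7 to 36.7 CPM in *daf-16(0)* and 39.6 to 56.1 CPM in control. Of the 5 markers listed 4 were tested, 3 with a negative sign, and 0 were called; *nhr-73* was at 0 in every library. Their part in the *ceh-16* values was not tested.

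*ceh-22*, an NK-2 gene that activates pharyngeal muscle genes, was at 2.93, 3.07 and 4.57 CPM in *daf-16(0)* and at 6.38, 11.4 and 5.43 CPM in control. The groups did not overlap, and the difference did not pass the test (log2 fold change -1.20 ± 0.70 and -1.13 ± 0.66). The sums of pharyngeal muscle markers overlapped, at 251 to 792 CPM and 373 to 719 CPM. Among the NK-like genes outside the naming rule, *ceh-43*, the *Distal-less* gene, and *ceh-62* are given because their values stood out when seen. *ceh-43* was at 1.04, 5.15 and 1.68 CPM in *daf-16(0)* and at 14.03, 12.7 and 3.89 CPM in control, with a log2 fold change of -1.96 in both fits (adjusted p = 0.11 and 0.17, edgeR quasi-likelihood test). *ceh-62* was at 4.62, 3.18 and 6.32 CPM in *daf-16(0)* and at 12.5, 20.4 and 0.768 CPM in control. In both genes control replicate 3 lay among or below the *daf-16(0)* libraries.

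The Hox gene and its partner did not pass the test. *ceh-13*, the *labial*-type Hox gene that patterns the anterior, was at 3.78, 13.8 and 9.22 CPM in *daf-16(0)* and at 14.9, 27.8 and 11.8 CPM in control. Control replicate 3 lay below *daf-16(0)* replicate 2, so the groups overlapped, and the log2 difference was -0.88 ± 0.50 in the 4 libraries. *ceh-20*, a Pbx gene whose protein binds DNA together with Hox proteins, was at 48.6, 26.9 and 44.6 CPM in *daf-16(0)* and at 57.3, 69.0 and 21.6 CPM in control. Control replicate 3 was the lowest of the 6 libraries for this gene, while control replicates 1 and 2 were the highest. On the log2 scale the difference was -0.80 ± 0.36 (adjusted p = 0.16, edgeR quasi-likelihood test) in the 4 libraries and -0.30 ± 0.46 (adjusted p = 0.70) in the 6, where it came to 0.01 without control replicate 2. The other Pbx-type member, *ceh-40*, had 5 counts in *daf-16(0)* replicate 1 and 0 elsewhere.

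The relatives of *Drosophila sine oculis*, *ceh-32*, *ceh-33* and *ceh-34*, were low and variable. *ceh-33* had 0, 0 and 0.381 CPM in *daf-16(0)* and 1.13, 2.85 and 1.84 CPM in control, so the groups did not overlap, and its log2 fold change of -3.80 ± 1.80 in the 6 libraries did not pass (adjusted p = 0.20, edgeR quasi-likelihood test). Its neighbour *ceh-34*, which specifies pharyngeal neurons and lies 3626 bp away on the same strand, was at 0, 5.70 and 2.67 CPM in *daf-16(0)* and at 4.53, 1.37 and 12.6 CPM in control. The sign of *ceh-34* was positive in the 4 libraries (0.53) and negative in the 6 (-1.16), and *ceh-32*, the *Drosophila optix*-type gene, likewise had 0.30 and -0.26, with neither passing the test. Of the 8 paired-like genes, which include the Otx relatives *ceh-36* and *ceh-37*, only *ceh-37* was tested in both fits, with overlapping levels of 4.95 to 9.87 CPM in *daf-16(0)* and 5.69 to 9.64 CPM in control. *ceh-36*, needed for the AWC and ASE chemosensory neurons, had 13 counts in *daf-16(0)* replicate 2 and 0 in the other libraries.

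Among the remaining members outside a named class, *ceh-58* was at 9.24, 10.5 and 4.88 CPM in *daf-16(0)* and at 18.1, 18.6 and 13.8 CPM in control, and *ceh-88* was at 7.16, 10.2 and 10.3 CPM in *daf-16(0)* and at 18.3, 19.01 and 14.7 CPM in control. Neither gene's groups overlapped, and their control libraries were among the least variable of the members. The log2 fold changes in the 6 libraries were -1.03 ± 0.47 for *ceh-58* and -0.91 ± 0.42 for *ceh-88* (adjusted p = 0.19 for each, edgeR quasi-likelihood test). The 20 tested members that the naming rule did not pick had log2 fold changes from -1.96 to 1.03 in the 4 libraries and from -1.96 to 1.42 in the 6, and their lowest adjusted p-values were 0.097 and 0.17.

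By class, the summed level separated the genotypes for the POU genes (22.4 to 54.02 CPM in *daf-16(0)* against 88.1 to 242 CPM in control). It also did for the NK-like genes (20.2 to 27.5 against 40.4 to 75.5 CPM). In control replicate 3, however, *ceh-16*, with the strand limit given above, held 21.3 of those 40.4 CPM. Without *ceh-16* the NK-like sums overlapped. The summed level overlapped for the CUT and ONECUT genes (129 to 142 against 128 to 217 CPM). The 20 members without a named class summed to 113 to 122 CPM in *daf-16(0)* and 95.9 to 111 CPM in control. That narrow gap was not kept without *ceh-100*, whose own groups overlapped. Among the tested genes without a named class, the median log2 fold change was 0.23 over 11 in the 4 libraries and 0.78 over 12 in the 6. For the NK-like genes it was -1.39 and -1.24 over 9. These sums are descriptions without a test.

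Neuronal markers were lower in *daf-16(0)* dauers by their summed level. The 16 pan-neuronal markers, which include synaptic vesicle and neuropeptide-processing genes, summed to 1056 to 1643 CPM in *daf-16(0)* and to 2489 to 4708 CPM in control, and none was at 0 in all libraries. All 16 had a negative sign in both fits, as had 6337 of 13536 genes tested in the 4 libraries and 6424 of 13633 in the 6. Of the 16, 5 fell in the 4 libraries and 7 in the 6, with medians of -1.32 and -1.28. These were 31.25% and 43.75%, beside 9.58% and 7.39% of all genes tested. *ida-1*, a dense core vesicle gene, was at 188, 220 and 280 CPM in *daf-16(0)* and at 1517, 1593 and 549 CPM in control. As with the *ceh* sum, control replicate 3 was the control library nearest to *daf-16(0)*, while within *daf-16(0)* the order of the libraries differed between the sums. The part of neuronal content in the levels of *ceh-14*, *ceh-48* and the other neuronal members was not tested. Body wall muscle markers summed to 4539 to 12265 CPM in *daf-16(0)* and 7464 to 25313 CPM in control, which overlapped, and intestinal markers to 1915 to 2750 and 988 to 1483 CPM, which did not. That gap was not kept without *act-5*, at 1012 to 1673 CPM in *daf-16(0)* and 409 to 600 CPM in control. By gene, *elt-2* and *ifb-2* overlapped between the genotypes and *ges-1* did not.

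**Figure D4:**
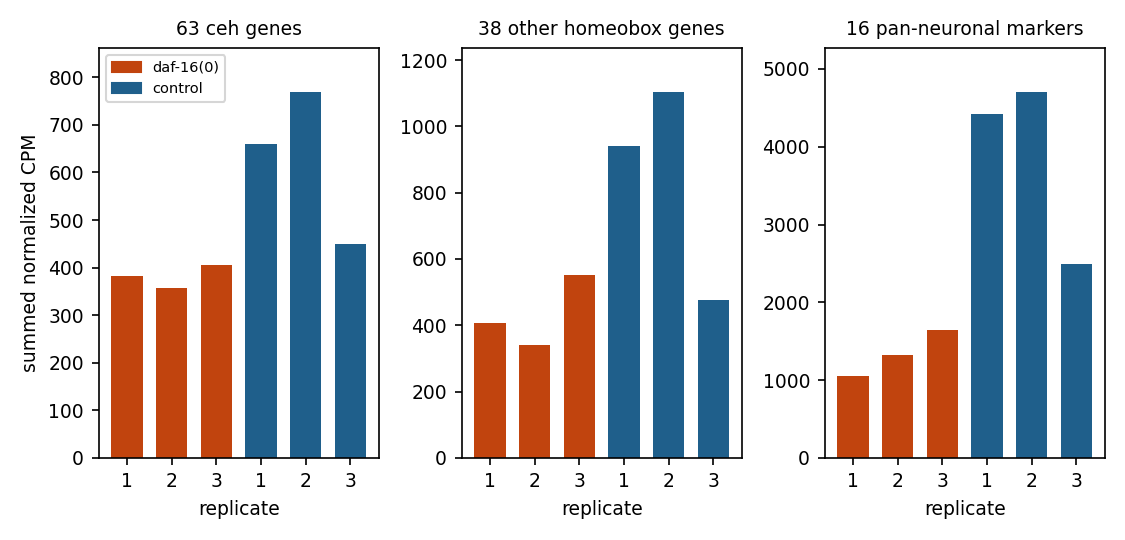
Summed normalized CPM in each library for the 63 *ceh* genes, 38 homeobox genes without a *ceh* name and 16 pan-neuronal markers, each on its own linear axis from 0; bars are single libraries, red for *daf-16(0)* and blue for control. In each panel control replicate 3 is the lowest of the 3 controls, at 450, 476 and 2489 CPM.

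The *ceh* genes were set beside 38 homeobox genes that carry other names and beside the 267 *nhr* genes, nuclear receptors that form another large transcription factor family. Of the other homeobox genes 31 were tested, and 4 fell in the 4 libraries and 2 in the 6, with 0 higher and medians of -1.16 and -1.21. Their summed level overlapped between the genotypes, at 339 to 551 CPM and 476 to 1105 CPM. Of the *nhr* genes, 4 fell and 4 rose among 181 tested in the 4 libraries and 2 fell and 6 rose among 179 in the 6, with medians of 0.17 and -0.02. Among all genes tested, 9.58% were called lower and 5.34% higher in the 4 libraries, and 7.39% and 5.07% in the 6. The share of *nhr* genes called lower was below that of all genes in both fits. For the other homeobox genes, the share called lower was above that of all genes in the 4 libraries and below it in the 6. The difference between these families was not tested.

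The 24 members that were tested in neither fit had at most 82 counts in any library. *ceh-7*, *ceh-51*, *ceh-54*, *ceh-84*, *ceh-87* and *ceh-90* had 0 counts in all 6 libraries, which at 3 counts allows up to 0.154 to 0.425 CPM in a library, and *ceh-28*, *ceh-75* and *ceh-81* had at most 3 counts in each. The others were *ceh-1*, *ceh-2*, *ceh-5*, *ceh-8*, *ceh-9*, *ceh-17*, *ceh-30*, *ceh-36*, *ceh-40*, *ceh-49*, *ceh-53*, *ceh-57*, *ceh-63*, *ceh-82* and *ceh-83*. Reads of several were held by 1 or 2 libraries, for example *ceh-53* with 82 of 101 counts and *ceh-17*, the Phox2-type gene, with 43 of 53 counts in control replicate 3, and *ceh-82* with its 26 counts in *daf-16(0)* replicate 1. Without a filter on low counts, edgeR's quasi-likelihood test covered 16 of the 24 in the 4 libraries and 18 in the 6, and 0 were called (lowest adjusted p = 0.37 and 0.19), with a median SE of 4.24 and 2.73 on the log2 scale.

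The part of the members that had enough reads to be tested varied between chromosomes. Whether it differed from that of all genes on each chromosome was not tested. All 9 members on chromosome III were tested in at least 1 fit, against 3 of 8 on chromosome I, 6 of 13 on chromosome II, 9 of 12 on chromosome V, 3 of 4 on chromosome IV and 9 of 17 on chromosome X. The adjacent genes *ceh-81*, *ceh-82* and *ceh-83* on chromosome II were all untested. The neighbours *ceh-33* and *ceh-34* and the group of *ceh-21*, *ceh-39* and *ceh-41* were all tested in at least 1 fit. Others were split, with *ceh-58*, *ceh-31* and *ceh-37* tested and the adjacent *ceh-57*, *ceh-30* and *ceh-36* not. Likewise *ceh-89* was tested and *ceh-90*, 10225 bp away with 1 protein-coding gene between them, was not. Of the members, 7 overlap another protein-coding gene on the opposite strand (*ceh-5*, *ceh-10*, *ceh-16*, *ceh-19*, *ceh-34*, *ceh-51* and *ceh-74*), so reads from their shared stretches cannot be told apart. The overlapping genes differed in reads. *C10G8.2*, beside *ceh-34*, had 0 counts in every library, and *ZC376.1*, beside *ceh-74*, at most 9. *emb-4*, beside *ceh-51*, had 500 to 1957 counts, while *ceh-51* itself had 0.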

How the data were processed

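Poly(A) mRNA-seq libraries of hand-picked whole dauer larvae were sequenced as paired-end reads. Per the submitters' processing notes and the study's methods, the authors used Trimmomatic 0.39 for trimming and STAR 2.4.2a for alignment to WBcel235, and deposited expected counts per gene estimated by RSEM 2.1. The library kit does not mark strand, and the counting setting for strand is not given in the sources used here. The authors also deposited normalized counts for 4 libraries and their own DESeq2 comparison (fold changes and p-values), which were not used. Expected counts were rounded to whole numbers; all 378 values of the 63 members were whole before rounding.

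Protein-coding genes were filtered with filterByExpr, scaled by TMM and tested with edgeR 4.0.16 (quasi-likelihood test, R 4.3.3) with Benjamini-Hochberg adjustment over all genes tested, and a gene was called at an adjusted p of at most 0.05 and at least 2-fold. CPM values were normalized by TMM over the 6 libraries. Errors on log2 fold changes are standard errors computed back from the log2 fold change and the test's F statistic. Errors on levels are SDs. Exon lengths came from Ensembl release 115 of WBcel235, and coordinates from the deposited table. The functions were tested on simulated data. Named members were those called in either fit and the 10 tested members with the highest control CPM. Also named were the tested members without overlap between the 3 libraries of each genotype, and *ceh-16*, *ceh-18* and *ceh-20*. The dauer collagens are the study's list, and the classes and other marker lists are groupings from general knowledge. Members and lists were chosen with earlier results of these data known. The alternatives were DESeq2 1.42.0, limma 3.58.1 on log2(CPM + 1), RLE scaling, no filter, a mean of at least 10 counts, other thresholds, genes of all biotypes, a replicate block and leaving out each library. No library was found to be a duplicate of another. A *ceh* pseudogene without reads was left out, and sequences were not analysed here.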

Additional observations from a re-analysis of the deposited data

How the results depend on the processing

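Of 389 alternative values of the named genes, 343 kept their direction and their side of the threshold. Many of these belong to genes that were not called in the main fit and stayed so. Among the called genes in the 4 libraries, *ceh-14* kept 7 of 9, *ceh-18* 8 of 9, and *ceh-48* and *ceh-76* 6 of 9 each. In the 6 libraries *ceh-18* and *ceh-76* kept 7 of 12 each. The count of 4 members lower in the 4 libraries ran from 0 to 5 when each library was left out, and was 6 with DESeq2, with limma and without the filter, which added *ceh-6* and *ceh-38*. The count of 0 members higher in the 4 libraries became 1 with DESeq2 (*ceh-92*) and 2 with limma (*ceh-92* and *ceh-99*), and ran from 0 to 1 when each library was left out. In the 6 libraries the count of 2 members lower became 6 with DESeq2 and ran from 0 to 4 when each library was left out, and the count of 0 members higher became 1 with limma (*ceh-99*). The median over tested members moved from -0.84 to -0.50 in the 4 libraries with a mean of at least 10 counts and ran from -0.90 to -0.52 when each library was left out, and from -0.56 to -0.29 with DESeq2 and to -0.27 without a filter in the 6. In the 4 libraries *ceh-44* ran from -0.40 to 0.12 when each library was left out, the latter without control replicate 1. In the 6 libraries it ran from -0.19 to 0.31 when each library was left out and was -0.0020 with a mean of at least 10 counts, while *ceh-20* ran from -0.64 to 0.012. Without a filter or with DESeq2 other genes enter the tests and the adjustment; otherwise the cause was not tested.

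Replicate numbers did not pair the samples, since the correlations of deviations between same-numbered libraries were -0.12, -0.006 and -0.31. With a replicate block in the 6 libraries 0 members were lower, the adjusted p being 0.098 for *ceh-18* and 0.11 for *ceh-76*.

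Over all genes, counts also depended on the tool: 1297 genes were lower and 723 higher in the 4 libraries, against 2039 and 1597 with DESeq2, 1971 and 1626 without a filter and 1826 and 1392 with limma. In the 6 libraries 1007 were lower and 691 higher, against 1834 and 1567 with DESeq2, 1444 and 1298 with limma, and 222 and 162 with the replicate block. Leaving out a library gave 436 to 1649 lower and 269 to 1917 higher in the 4, and 170 to 1630 lower and 125 to 1246 higher in the 6. RLE scaling shifted the median of all genes by -0.011 and -0.003 against TMM.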
